A study of Homo sapiens with 2 samples.

Results

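Integrins and laminins form an adhesive pair at the base of an epithelium, and the RUNX1 binding sites at their genes were examined in a line made from MCF10A. Unmodified MCF10A is a breast epithelial cell line that does not form tumours. The genes were 36 listed by name, 25 integrin chains and 11 laminin chains, out of 20033 protein-coding genes, by family and with no measured value in the rule. The assay was ChIPseq, in which DNA bound to an immunoprecipitated protein is sequenced. It gave 1 library from an anti-RUNX1 antibody and 1 from the input chromatin. None of the values is replicated, and samples could not be tested against each other. Both libraries came from 1 engineered line, in which the native RUNX1 gene had been deleted and a lentiviral RUNX1 gene was switched on with doxycycline at 1 µg/ml for 24 hours. By the study's methods, deleted lines were grown from single-cell colonies. The study reports that loss of RUNX1 alone transformed MCF10A cells, in culture and in mice. The sites are therefore those of added RUNX1 in 1 such line, and no library of MCF10A cells with native RUNX1 was analysed here. The study did run ChIPseq of native RUNX1 first and saw no strong binding to chromatin. It names low RUNX1 expression, low antibody affinity or both as possible reasons. A list of peaks holds no expression, so the labelled cell type could not be checked against its markers, nor could the activity of any gene be read.

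Integrins are receptors made of 1 alpha and 1 beta chain that span the cell membrane, hold the cell to the matrix outside and link to the cytoskeleton inside. Laminins are secreted trimers of an alpha, a beta and a gamma chain, and are the main adhesive proteins of the basement membrane. In mammary epithelium, basal cells rest on laminins through integrins with an alpha-3 or alpha-6 chain, and the pair of alpha-6 and beta-4 anchors hemidesmosomes. RUNX1 binds DNA together with CBFB, at sites with the letters TGTGGT or TGCGGT.

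Sequences are shown for the 3 genes with a RUNX1 summit within 1 kb of a listed start. A summit is the position of highest signal in a peak. Starts and sequences are from the RefSeq promoter table (GRCh38.p14), which matched 25 of the 36 genes. The other 11, ITGB2 among them, have no start in it, so their summits could not be placed against one. Peak positions are those of the authors' list, on hg38 by the submitters' processing notes. A summit lay within 1 kb of a listed start in 3 of the 25 genes, ITGA6, LAMB2 and LAMB3, against 4.87% of all protein-coding genes with a listed start. Within 5 kb there were 8 genes, with ITGB1, ITGA2, ITGB7, LAMA3 and LAMA5 added, against 10.1%. Sequences run 5′ to 3′ on the strand of the gene, and capitals mark the letters TGTGGT or TGCGGT or their reverse complements, ACCACA and ACCGCA.

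The first sequence is the opening 72 bases of the ITGA6 peak (chr2:172427294-172427365, plus strand), which run from the edge of the peak to 30 bases past the first of 2 listed starts. The others are the 250 bases before the first listed start of LAMB3 (chr1:209652426-209652675, minus strand) and before the start of LAMB2 (chr3:49133051-49133300, minus strand).
ITGA6: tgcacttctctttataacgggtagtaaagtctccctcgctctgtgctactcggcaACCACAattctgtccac
LAMB3: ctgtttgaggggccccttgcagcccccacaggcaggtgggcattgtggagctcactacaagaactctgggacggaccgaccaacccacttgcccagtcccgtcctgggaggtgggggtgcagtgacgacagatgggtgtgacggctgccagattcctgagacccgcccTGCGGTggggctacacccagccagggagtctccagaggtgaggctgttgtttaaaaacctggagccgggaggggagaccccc
LAMB2: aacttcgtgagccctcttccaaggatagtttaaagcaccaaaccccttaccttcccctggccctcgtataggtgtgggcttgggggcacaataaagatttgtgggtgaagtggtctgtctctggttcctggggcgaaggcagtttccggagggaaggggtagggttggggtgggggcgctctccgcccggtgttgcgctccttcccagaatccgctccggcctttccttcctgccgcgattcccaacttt

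In ITGA6 the letters ACCACA lay inside the peak, at 172427349 to 172427354, 32 bp from the summit. LAMB3 held TGCGGT at 209652502 to 209652507, in a stretch between its peaks that no peak covered. The LAMB2 stretch held neither form, and its peak lay farther upstream, outside these bases. Either form was found in 8 of 32 promoter windows of the listed genes (25%), each from 250 bases before a start to 50 after it, and windows of 1 gene can overlap. They came from ITGA2, ITGA6, ITGAM, ITGB5, LAMA4 and LAMB3. Counted by gene, that is 6 of 25, beside 6252 of all 27305 genes with a window. Of all 35116 windows of 300 bases in the table, 19.6% held one. TGTGGT alone was in 3 of the 32 (9.38%) against 13.1% of all, so the order of the shares turned with the letters searched. A peak overlapped 2 of the 32 windows, both of ITGA6, against 1.65% of all windows. Of the windows that a peak overlapped anywhere, 56.2% held the letters, against 19.0% of the others. A match of letters is a description and does not show a bound site.

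A gene was given each peak whose summit fell between 5 kb before and 5 kb beyond it. By this rule 19 of the 36 genes (52.8%) had at least 1 peak, and 17 had none. Of all protein-coding genes, 24.8% had one. Long genes hold more peaks, and the listed genes are long, with a median of 80.5 kb against 24.1 kb. Among protein-coding genes in the same deciles of gene length the share was 35.5%, which corresponds to 12.8 of 36 genes. The difference was not tested, and 1 library of each kind gives no spread between samples. The peaks numbered 45, against 24.0 for genes in the same length deciles, and 34 of them lay inside the gene. They were spread unevenly, with at least 4 at each of 5 genes and 1 at each of 10, and neighbouring peaks need not be separate sites. With the gene body alone 18 genes had a peak, and 18.7% of all protein-coding genes did. With 50 kb on either side 29 genes had one, against 52.1% of all. Of the 17 genes without a peak, 10 had a summit 5 to 50 kb away and 7 did not.

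**Figure D1:**
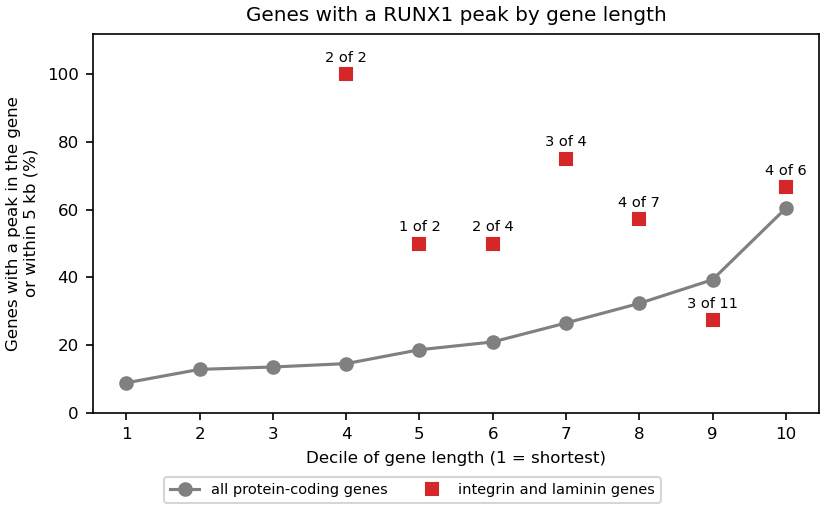
Percentage of genes with a RUNX1 peak in the gene or within 5 kb (vertical axis) by decile of gene length (horizontal axis, 1 is the shortest); the grey circles and line give all protein-coding genes and the red squares the integrin and laminin genes, with their numbers beside each square. The grey line rises from 8.83% to 60.4%, and the squares lie above it in every decile that holds listed genes but the ninth, where 3 of 11 genes had a peak.

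By the plot of genes with a peak against length, the share among all genes climbed with length throughout. In the ninth decile, from 83.5 to 152 kb, 3 of 11 listed genes had a peak against 39.3% of all genes. The squares each rest on 2 to 11 genes.

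Of the 11 laminin genes 8 had a peak (72.7%), against 40.4% among genes of the same length deciles, and they held 22 peaks. Of the 25 integrin genes 11 had a peak (44.0%), against 33.3%, and they held 23. Whether the families differ was not tested. The peaks themselves were of ordinary height. The median pileup, which counts extended ChIP tags at a summit, was 17 over the 45 peaks (range 12 to 70) and 18 over all 13591 peaks. The median fold enrichment, the pileup over the local background, was 4.98 against 5.06. A fold enrichment of at least 10 was reached by 4 genes, ITGB2, LAMA3, LAMB2 and LAMC1, with 1 such peak each. Of all protein-coding genes 1.47% had one, and of genes in the same length deciles 2.14%.

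**Figure D2:**
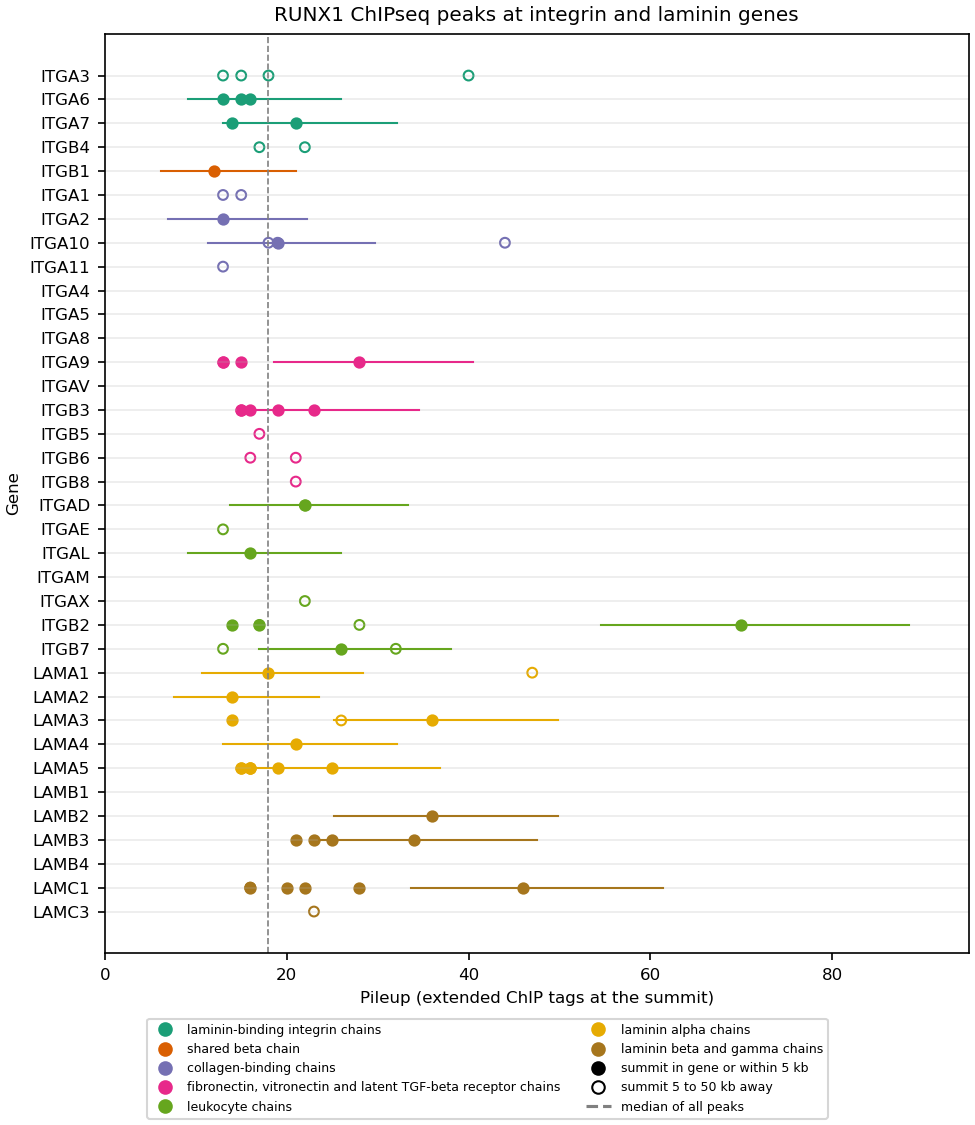
Pileup of each peak (horizontal axis, extended ChIP tags at the summit) for each of the 36 genes (vertical axis), coloured by role; filled points are summits in the gene or within 5 kb, open points are summits 5 to 50 kb away, bars are exact 95% Poisson intervals of the best filled peak, and the dashed line is the median of all peaks, 18 tags. The ITGB2 peak of 70 tags stands to the right of every other point, whereas most points lie between 12 and 30 tags.

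**Figure D3:**
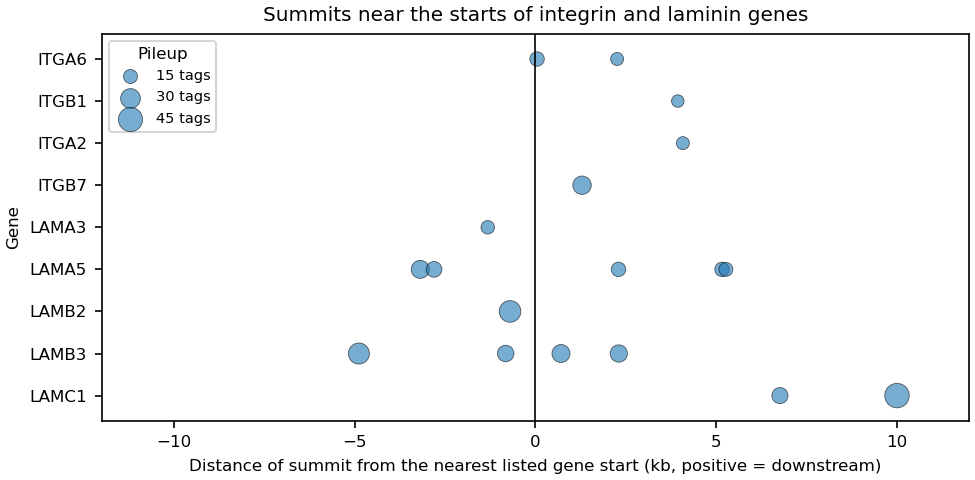
Distance of each summit from the nearest listed gene start (horizontal axis, kb, positive downstream) for the 9 genes with such a summit within 12 kb of one, counting summits in the gene or up to 5 kb from it (vertical axis); the area of a point grows with the pileup. The nearest ITGA6 summit sits 50 bp from the start, the LAMB2 summit lies upstream and LAMB3 summits lie on either side at under 1 kb, and the largest point, of LAMC1 with 46 tags, is 10.0 kb downstream.

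Of the 28 summits in genes with a listed start, 14 lay within 5 kb of the nearest one and 11 over 10 kb away. Upstream of it were 7.

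Beside the count for each role stands the number that genes of the same length deciles would give, and no test was made between roles. Of the 4 chains of laminin receptors 2 had a peak, against 1.01. ITGA6 encodes the alpha-6 chain, shared by the hemidesmosome receptor and a receptor that signals through beta-1. ITGA6 spans 172427336 to 172506459 on chromosome 2 and had 3 peaks, all inside the gene. The peak at its start reached 16 tags (exact 95% Poisson interval 9.15 to 26.0) and a fold enrichment of 5.31. Its summit was 50 bp downstream of the first start and 200 bp upstream of the second. The other ITGA6 peaks had 13 and 15 tags, 2266 bp and 35738 bp downstream of the nearest start. All 3 intervals overlap, so no ITGA6 site can be ranked above another. ITGA7, the alpha-7 chain of muscle laminin receptors, had a peak of 14 tags inside the gene and 1 of 21 tags 4561 bp from it, which lay inside RDH5.

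ITGA3, the alpha-3 chain, and ITGB4, the partner of alpha-6 in hemidesmosomes, had 0 peaks by the 5 kb rule. The nearest summits were 10.1 kb from ITGA3 and 29968 bp from ITGB4. ITGA3 had 4 summits within 50 kb, and the tallest of these, 28.6 kb away, reached 40 tags (28.6 to 54.5) and a fold enrichment of 12.8 and lay in no gene of the table. Both summits near ITGB4, of 17 and 22 tags, lay inside SAP30BP. ITGB1 encodes the beta-1 chain that pairs with most of the alpha chains here. It had 1 peak of 12 tags (6.20 to 21.0), the lowest height among the 45, at 3945 bp downstream of the nearest listed start. Its fold enrichment was 4.06, and 87.8% of all peaks had a higher −log10 q.

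Of the 4 collagen-binding chains 2 had a peak, against 1.58, with 1 peak each. Neither gene kept its peak at a fold enrichment of at least 5, and ITGA10 lost its own at a q limit of 0.01. ITGA2, the alpha-2 chain of a collagen and laminin receptor of epithelium, had 1 peak of 13 tags (6.92 to 22.2), 4086 bp downstream of its start. The same summit is 34.2 kb from ITGA1, its neighbour. ITGA10 had 1 peak of 19 tags with a fold enrichment of 2.69, where the input level was 2.92 times the genome background. A taller summit of 44 tags (32.0 to 59.1) lay 40.8 kb from ITGA10, inside LIX1L. ITGA1 and ITGA11 had 0 peaks within 5 kb, and the nearest summit to ITGA11, of 13 tags, was 21.2 kb away.

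Of the 9 chains of fibronectin, vitronectin and latent TGF-beta receptors 2 had a peak (22.2%), against 24.8% of all protein-coding genes and 40.1% of genes in the same length deciles. ITGA9, the alpha-9 chain, spans 371.4 kb and had 4 peaks, all inside the gene. Their pileups were 13, 13, 15 and 28 tags, and the tallest, of 28 tags (18.6 to 40.5), had a fold enrichment of 7.72. ITGA9-AS1, an antisense RNA gene, holds 3 of these summits. ITGB3, the beta-3 chain of the platelet fibrinogen receptor and of a vitronectin receptor, had 5 peaks of 15, 15, 16, 19 and 23 tags within 59.92 kb, all in the gene. As many or more were found in 211 protein-coding genes, itself included. Of the ITGB3 peaks, 1 ended at 47305531 and the next began at 47305587, so the 5 need not be separate sites. EFCAB13-DT overlaps the part of ITGB3 that holds 3 of the summits. ITGB5, ITGB6 and ITGB8 had none within 5 kb, and their nearest summits were 7.14, 8.08 and 31.1 kb away, with 17, 16 and 21 tags. ITGB6 and ITGB8 encode beta chains that pair with alpha-v and bind latent TGF-beta. ITGAV, the alpha-v chain itself, had its nearest summit 90.7 kb away. ITGA4 and ITGA8, at 398 and 153 kb, had none within 50 kb either. ITGA5 is the alpha-5 chain of the classic fibronectin receptor, and its nearest summit was 90.9 kb away.

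Of the 7 leukocyte chains 4 had a peak, against 1.81, and the tallest peak of all listed genes was at one of them. ITGB2 encodes the beta-2 chain, which white blood cells use in all their beta-2 integrins, and spans 44885953 to 44928815 on chromosome 21. Its peak ran from 44928742 to 44929080, with the summit 114 bp beyond the high-coordinate end of the gene and inside ITGB2-AS1, an antisense RNA gene. ITGB2 has no listed start, so whether this end is where its transcription begins was not read here. The pileup was 70 tags (54.6 to 88.4), the fold enrichment 18.9 and the −log10 q 65.6. It was 15th of the 13591 peaks by q, and its interval did not overlap that of the other 2 peaks counted for the gene. The others had 17 tags, 2520 bp beyond the gene, and 14 tags, inside it. The input level at the tall peak was 1.25 times the genome background. ITGB7, the beta-7 chain of lymphocyte homing receptors, had 1 peak of 26 tags (17.0 to 38.1) with a fold enrichment of 8.43, 1295 bp downstream of its start. A summit of 32 tags (21.9 to 45.2) lay 10.2 kb from ITGB7, inside RARG.

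ITGAD and ITGAL, alpha chains that pair with beta-2, had 1 peak each, of 22 and 16 tags, with input levels of 1.67 and 2.09 times the genome background. Neither peak reached a fold enrichment of 5, and that of ITGAL was lost at a q limit of 0.01. The ITGAD summit is also the nearest to ITGAX, 17.4 kb away. ITGAE, which pairs with beta-7, had a summit of 13 tags 45.1 kb away. The nearest to ITGAM, the alpha chain of the macrophage receptor, was 67.5 kb away.

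All 5 laminin alpha genes had a peak, against 2.53 by their length deciles. They are long genes, and 50.6% of all genes in these deciles had one. The peak of LAMA2 had a fold enrichment of 3.99, and neither LAMA1 nor LAMA2 kept a peak when only those at the genome-wide input level were counted. LAMA3 encodes the alpha-3 chain of laminin-332, the laminin of hemidesmosomes, and spans 23689453 to 23955066 on chromosome 18. It had a peak of 36 tags (25.2 to 49.8) at 23833783 to 23834020, with a fold enrichment of 11.6, and a second of 14 tags (7.65 to 23.5). The intervals of the 2 do not overlap. Both were inside the gene. Their distances from the 1 listed start, itself inside the gene, were −39117 and −1316 bp, negative values being upstream. Of the alpha genes, LAMA3 had the tallest peak within 5 kb.

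LAMA5, the alpha-5 chain of laminins found in most mature epithelial basement membranes, had 7 peaks in or near 58.25 kb, the most of any listed gene. As many or more were found in 60 protein-coding genes, itself included. Their pileups were 15, 15, 16, 16, 16, 19 and 25 tags, with fold enrichments of 3.57 to 5.56. The tallest was above the upper quartile of all peaks, 23 tags, but none reached a fold enrichment of 10. Of the 7, 4 lay inside the gene. There were 2 upstream of the start, at 2802 and 3185 bp, and the last lay inside ADRM1 at the other end. Some stood next to each other, so the 7 need not be separate sites.

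LAMA4, of vessel and muscle laminins, had 1 peak of 21 tags, 78165 bp into the gene. LAMA1, the alpha-1 chain of the first laminin of the embryo, had 1 peak of 18 tags inside the gene, and a taller summit of 47 tags (34.5 to 62.5) with a fold enrichment of 15 stood 21.4 kb away, in no gene of the table. LAMA2, the muscle chain, is the longest gene of the group at 633.4 kb and had 1 peak, of 14 tags.

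Of the 6 laminin beta and gamma genes 3 had a peak, against 1.91. LAMC1, the gamma-1 chain present in most laminins, spans 183023420 to 183145592 on chromosome 1 and had 5 peaks of 16, 20, 22, 28 and 46 tags. The tallest, at 183033277 to 183033530, lay 10014 bp downstream of the start, with an interval of 33.7 to 61.4 tags and a fold enrichment of 12. By −log10 q 1.17% of all peaks stood higher. LAMB3, the beta-3 chain that joins alpha-3 in laminin-332, had 4 peaks of 21, 23, 25 and 34 tags around the start. Their distances from the nearest start were −819, 2312, 712 and −4883 bp in that order, negative values being upstream. The farthest, with 34 tags (23.5 to 47.5), was the tallest, though the intervals of all 4 overlap. It lay 4883 bp outside the gene, just inside the limit of 5 kb, whereas the nearest gene outside the limit was ITGB5 at 7.14 kb.

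LAMB2, the beta-2 chain of synapse, kidney and muscle laminins, is the shortest gene of the group at 11.94 kb. Its 1 peak, at 49133582 to 49133812 on chromosome 3, reached 36 tags (25.2 to 49.8) and a fold enrichment of 11.6, 699 bp upstream of its start and inside the RNA gene LOC124909377. The input level was that of the genome background. LAMB1 and LAMB4, neighbours on chromosome 7, had their nearest summits 251 and 124 kb away, and the nearest to LAMC3, of 23 tags, was 37.2 kb away.

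The input level, the local background that the peak caller set against the ChIP signal, differed between these genes. It was 1.33 to 2.92 times the genome background at the 10 peaks on chromosome 1, which belong to LAMB3, LAMC1 and ITGA10, with a median of 1.64. Over all peaks of chromosome 1, along its whole length, the median was 1.36. The part of the chromosome that holds LAMB3, LAMC1 and ITGA10 was not taken apart from the rest. At the other 35 peaks the median was 1.00, and 6 of them had a level of at least 1.5. A level of 1.00 is the floor, the lowest value over all 13591 peaks. No interval was computed for the input levels. The part of input level in the heights was not tested. Without chromosome 1, 16 of 33 listed genes had a peak. Over all chromosomes 24.8% of protein-coding genes did. No share of all genes without chromosome 1, length-matched or not, was computed.

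**Figure D4:**
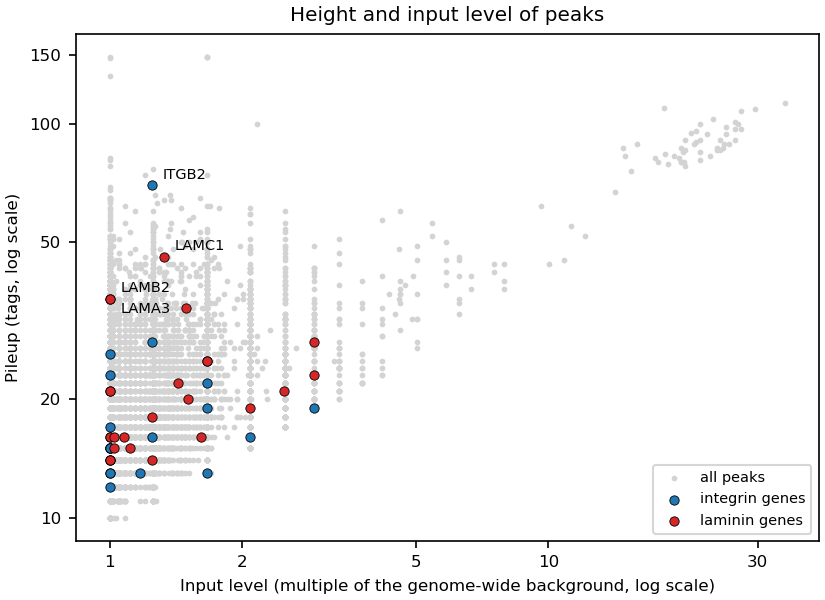
Pileup (vertical axis, tags, log scale) against input level (horizontal axis, multiple of the genome-wide background, log scale) for all peaks in grey and for peaks at integrin genes in blue and laminin genes in red. Peaks of the listed genes with a fold enrichment of at least 10 are named, and ITGB2 stands highest among these genes, at 70 tags and 1.25 times the background.

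Proteins that act beside these receptors and ligands were counted from a list of 28 genes. They comprise adaptors and kinases of integrin adhesions, the hemidesmosome, laminin receptors that are not integrins, and basement membrane partners of laminin. Of these, 18 had a peak (64.3%), against 24.8% of all protein-coding genes and 35.2% of genes in the same length deciles, and they held 47 peaks. In the hemidesmosome 2 of 4 did, against 1.38. PLEC, whose product plectin ties beta-4 to keratin filaments, had 10 peaks of 14 to 36 tags inside the gene, and 13 protein-coding genes, itself included, had as many or more. The input level at them was 1.00 to 2.92 times the genome background. Some stood within 1 kb of each other, so the 10 need not be separate sites. SRC, a kinase of focal adhesions, had 1 peak of 37 tags (26.1 to 51.0) with a fold enrichment of 11.7. These were the 2 partner genes with a fold enrichment of at least 10, from peaks inside the gene.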

How the data were processed

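The data were 1 RUNX1 ChIP library (89501295 tags, 80338845 kept) and 1 input library (94686274, 87410774 kept), grouped by the antibody in their labels. The submitters' processing notes name Bowtie2 and hg38, and per the file headers the authors called peaks with MACS 2.1.2 at a q limit of 0.05, with tags of 54 bp extended to 74 bp and at most 1 tag per position and strand. The pileup they deposited is a signal, in extended tags. The deposited fold enrichment is a ratio to the local background, 1 being added to each, and the deposited p and q are −log10 values.

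The input level was recovered from pileup and fold enrichment, and divided by the genome background of 2.20 tags (kept tags times 74 bp over 2.7 Gb). Gene intervals and starts came from RefSeq tables of GRCh38.p14, and all 36 listed genes and 28 partners matched by symbol. The table of intervals has no exons, so exons, introns and UTRs were not told apart. Length-matched shares are means over deciles of protein-coding gene length. No genes were drawn at random. Pileup intervals are exact 95% Poisson intervals and cover counting error only. Counting was tested on simulated data. Python 3.11.15, pandas 2.3.3 and scipy 1.17.1 were used.

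The members and lists were chosen with earlier results of these data known. Every listed gene is named. Partners are named where a peak has a fold enrichment of at least 10, and any others were chosen after their values were seen. Other settings were gene bodies alone, 50 kb, q of 0.01, peaks enriched at least 5-fold, overlap of any base, merging within 1 kb, peaks within 5% of the genome background, the 200 genes nearest in length, and TGTGGT alone.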

Additional observations from a re-analysis of the deposited data

How the results depend on the processing

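Of 31 alternatives over 7 results, 23 left the count within 1.5 times, or the share or median within its 95% binomial interval. With peaks at the genome-wide input level alone, the listed genes with a peak went from 19 to 11 and their peaks from 45 to 21, and the partner genes went from 18 to 11. Of all protein-coding genes 13.8% then had a peak. The 8 genes lost were ITGA10, ITGA2, ITGAD, ITGAL, LAMA1, LAMA2, LAMB3 and LAMC1. A fold enrichment of at least 5 left 19 peaks at 13 genes, against 15.4% of all genes, and ITGA10, ITGA2, ITGAD, ITGAL, ITGB1 and LAMA2 were lost. A q limit of 0.01 lost ITGA10 and ITGAL and left 17 listed genes (47.2%), against 24.1% of all genes. With 50 kb on either side there were 29 genes, 73 peaks counted per gene and a length-matched share of 57.8%. TGTGGT alone was found in 3 promoter windows in place of 8, 9.38% against 13.1% of all windows, where either form gave 25% against 19.6%. Each of these settings used a narrower or wider definition than the main one, and what lay behind the changes was not tested. Merging peaks within 1 kb left 42 peaks, still at 19 listed genes, against 24.7% of all genes. No paired analysis was possible because the design has only 1 ChIP and 1 input library. At the 16 tags of the ITGA6 start the interval runs from 9.15 to 26.0, so weak sites cannot be ranked, and no second library was analysed here.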

Other observations

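Among the partner genes, all 4 that encode basement membrane partners of laminin had a peak, namely NID1, NID2, HSPG2 and AGRN. They held 7 peaks, of 12 to 17 tags, and none reached a fold enrichment of 5. This group was singled out after its values were seen. Genes of the same length deciles would give 1.37 of 4.

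Counted per gene, 28 summits lay between 5 and 50 kb from a listed gene, and 15 of these lay inside another protein-coding gene. The 15 include the summits in ITGA2 and ITGAD, counted here for ITGA1 and ITGAX. Those 2 summits are also among the 45 peaks within 5 kb of a listed gene. The matching share over all peaks was not computed.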
